A study of Mus musculus with 12 samples.

Results

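The complement components and receptors described here are 9 genes chosen by their symbols, *C1qa*, *C1qb*, *C1qc*, *C3*, *C4b*, *C3ar1*, *C5ar1*, *Cfb* and *Serping1*, out of 54833 genes in the expression table. A total of 21495 genes had enough counts to be tested, and all 9 complement genes were among them. They were measured by RNA-seq of brain tissue from male C57BL/6 mice with no engineered allele, 24 h after intracerebral hemorrhage (ICH) or sham surgery. The young mice were 8 to 10 weeks old and the aged mice 20 to 22 months old. In the young ICH and aged ICH groups, type IV collagenase was infused into the basal ganglia on the right side, where it breaks down vessel walls. The young sham and aged sham groups had the same surgery with sterile saline alone. Tissue around the hematoma in the ipsilateral caudate putamen, or the matching tissue of sham mice, was collected after perfusion with buffer, and each sample pooled 2 to 3 mice. There were 3 samples in each of the 4 groups, so the spread given here is the spread between pools and not between animals. The total count per sample ranged from 28410896 to 37785160.

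Complement is a cascade of plasma and tissue proteins that tags cells, debris and microbes and calls in phagocytes. C1q, built from the products of *C1qa*, *C1qb* and *C1qc*, starts the classical pathway through the proteases C1r, which cleaves C1s, and C1s, which cleaves C4 and C2; the alternative pathway runs through factor B, and all routes meet at C3, whose fragment C3a, like C5a further down, acts on a receptor on myeloid cells. In the brain, microglia are known as the main source of C1q, astrocytes and other glia can express C3 and C4, and C1 inhibitor, encoded by *Serping1*, blocks C1r and C1s.

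The labelled tissue was checked against 8 genes of striatal projection neurons, among them *Ppp1r1b*, *Drd1* and *Penk*. All 8 were detected in every sample, and *Penk* was the most abundant of them. Their summed level, in FPKM (fragment counts corrected for gene length and depth), was 740.6, 452.1 and 423.7 in the young sham samples, 332.5, 123.2 and 493.8 in the young ICH samples, 544.0, 694.7 and 376.3 in the aged sham samples, and 95.6, 561.1 and 231.5 in the aged ICH samples. The striatal signal therefore varied within each group, and young ICH 2 and aged ICH 1 were lowest. Choroid plexus RNA was uneven as well, and the 3 samples highest in it were also the 3 highest in *C3*, whose values are given with and without them.

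*C1qb*, *C1qa*, *C4b* and *C1qc* stood in this order by mean FPKM in all 4 groups, and *Cfb* was last in all 4. Among the genes tested, the mean level of *C1qb* over the 12 samples lay at percentile 98.2, *C1qa* at 97.8, *C4b* at 96.0 and *C1qc* at 93.7. The other members lay lower, with *C3* at percentile 71.6, *Serping1* at 67.7, *C5ar1* at 60.8, *C3ar1* at 55.7 and *Cfb* at 3.34. The ranges of some neighbours in this order overlapped, although all genes were measured in the same pools. *C1qa* and *C1qb* overlapped in every group, but *C1qb* was the higher in every sample, with a ratio of *C1qa* to *C1qb* of 0.796 to 0.983. *C4b* overlapped with *C1qc* in the young sham and young ICH groups. In the aged sham group *C4b* overlapped with both *C1qa* and *C1qb*, while it lay below both within each sample. In the aged ICH group, *C4b* lay apart from its neighbours, between 55.6 and 68.4 FPKM, above *C1qc* and below *C1qa*.

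**Figure D1:**
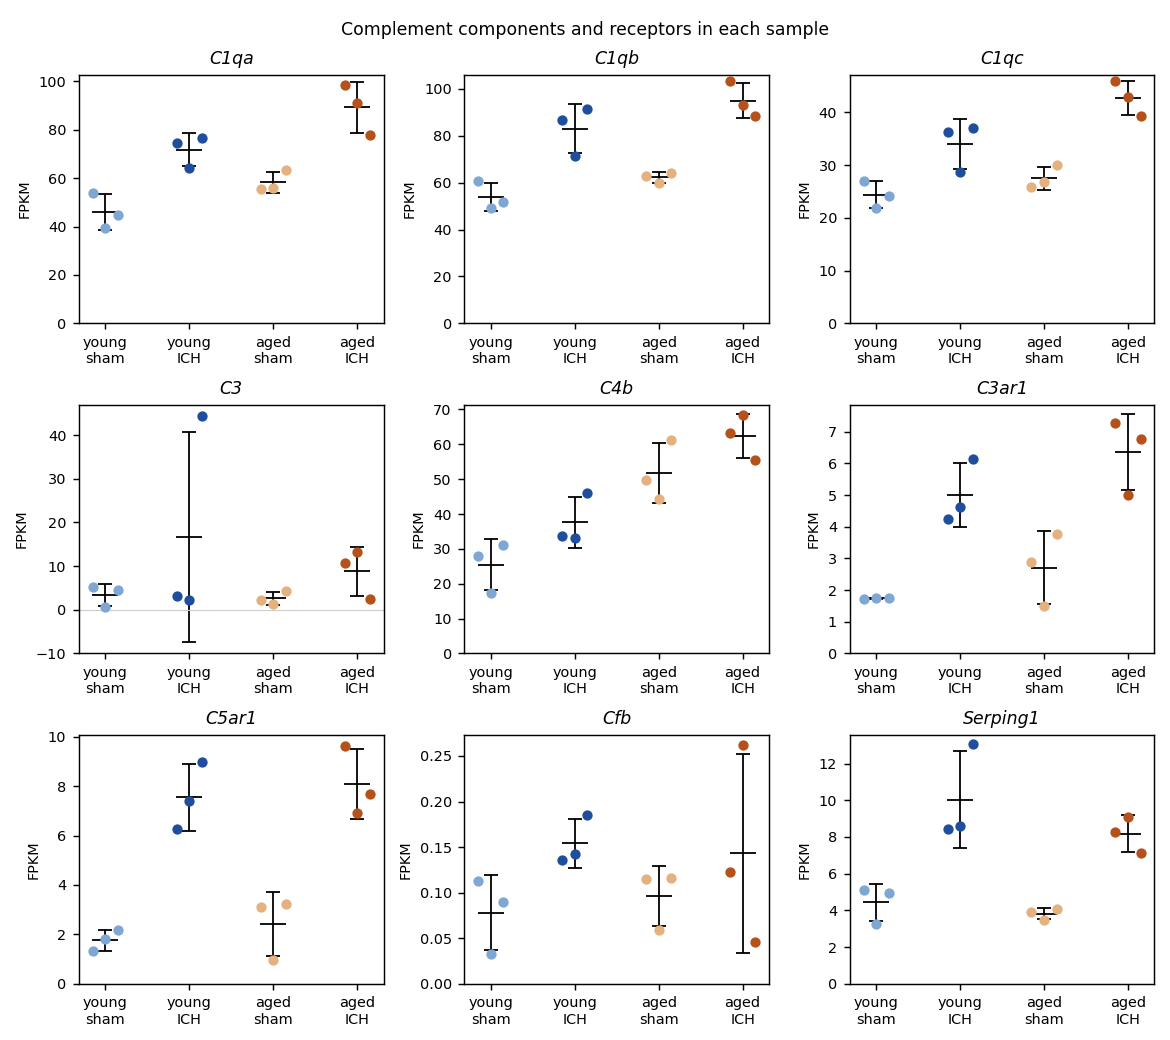
FPKM (vertical axes) of the 9 complement genes in the 12 samples, by group, with each sample as a point and the group mean ± SD as bars (n = 3 pools per group). *C1qa*, *C1qb*, *C1qc*, *C3ar1*, *C5ar1* and *Serping1* lay higher in every ICH sample than in every sham sample of the same age, while the mean of *C3* in the young ICH group rests on 1 sample at 44.4 FPKM. How many of all genes tested lay apart like this is not given here.

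Whether complement expression differed after ICH was asked within each age by comparing each ICH group with the sham group of its age; the young and the aged comparison share no samples. A gene was called a differentially expressed gene (DEG) by the criteria of the study, a fold change (FC) above 1.5 or below 0.67 with an unadjusted *P* under 0.05, here from edgeR, a model of counts fitted to all 12 samples. In the young mice 3 of the 9 complement genes were called higher after ICH, against 8.66% of all genes tested; 0 of 9 were called lower by edgeR, DESeq2 or limma, and 0 of 9 had an unadjusted *P* under 0.05 in that direction by any of the 3 tools. The aged mice gave 3 of 9 as well, against 7.24%. By the same criteria DESeq2 called 3 at each age, and limma on log2(FPKM + 1) called 5 in the young and 6 in the aged mice. The percentages of all genes given here are from edgeR only, so these counts have no such share beside them. *C3ar1*, *C5ar1* and *Serping1* were the called genes at both ages. By an adjusted *P* under 0.05 alone, with no limit on FC, a rule added after seeing the data, 6 of 9 passed at each age, all of them higher, against 9.89% of genes that passed and were higher in the young and 7.0% in the aged comparison; these were the same 3 and the 3 C1q genes. The median log2FC of the 9 genes was 0.86 in the young mice, where the median of all genes tested was 0.02, and 0.56 in the aged mice, where it was 0.00. Leaving out 1 library raised the number called in the young mice to 6 without young ICH 2 and to 5 without young sham 1, and in the aged mice to 6 without aged ICH 3 and to 5 without aged sham 3; the C1q genes made up most of the additions.

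The 3 subunits of C1q, the recognition molecule of the classical pathway, moved together and by modest amounts. *C1qa* measured 53.8, 39.2 and 44.7 FPKM in the young sham samples and 74.6, 64.2 and 76.8 FPKM in the young ICH samples. In the aged sham samples *C1qa* measured 55.5, 56.1 and 63.2 FPKM, and in the aged ICH samples 98.7, 91.2 and 77.9 FPKM. Every ICH sample was above every sham sample of its age, and the aged ICH samples were also all above the young ICH samples. The fold was 1.47 in the young mice (log2FC 0.56 ± 0.12 SE; edgeR, adjusted *P* = 0.00835) and 1.46 in the aged mice (0.54 ± 0.12; edgeR, adjusted *P* = 0.0135), just under the FC criterion, with 3 of 3 ICH samples higher at each age.

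*C1qb* measured 60.5, 49.3 and 51.9 FPKM in the young sham samples, 86.7, 71.3 and 91.4 in the young ICH samples, 62.7, 59.8 and 64.3 in the aged sham samples, and 103.4, 93.1 and 88.6 in the aged ICH samples. *C1qc* averaged 24.4 FPKM in the young sham group, 34.0 in the young ICH group (28.6 to 37.1), 27.5 in the aged sham group (25.8 to 29.9) and 42.7 in the aged ICH group (39.4 to 45.9). Neither gene's ICH samples overlapped with the sham samples of the same age. For *C1qb* the fold was 1.45 at both ages (log2FC 0.53 ± 0.10 in the young mice; edgeR, adjusted *P* = 0.00444, and 0.54 ± 0.10 in the aged mice; edgeR, adjusted *P* = 0.0077). *C1qc* was higher by a fold of 1.31 in the young mice (0.39 ± 0.10; edgeR, adjusted *P* = 0.0237) and 1.48 in the aged mice (0.56 ± 0.10; edgeR, adjusted *P* = 0.00819), in 3 of 3 ICH samples each. The edgeR folds include a scaling factor per sample (TMM), from 1.007 to 1.041 in the ICH samples and from 0.954 to 0.99994 in the sham samples. The FPKM values hold no such factor, so ICH stands slightly further above sham in FPKM than in the edgeR folds. Limma on log2(FPKM + 1) called more members, as given above. Because the edgeR folds lie close to 1.5, single libraries changed the calls as well. *C1qa* and *C1qb* met the FC criterion in the young mice without young ICH 2 (log2FC 0.63 each) or without young sham 1 (0.69 and 0.63). All 3 genes met it in the aged mice without aged ICH 3 (*C1qa* 0.63, *C1qb* 0.59, *C1qc* 0.62), and *C1qa* (0.60) and *C1qc* (0.62) met it without aged sham 3. Over the 12 libraries left out in turn, the adjusted *P* by edgeR for *C1qc* in the young mice (log2FC 0.39, 3 of 3 samples higher) ranged from 0.00602 to 0.103, above 0.05 without young ICH 1, young ICH 3, young sham 2 or young sham 3. With the 2 groups only it was 0.0668 by edgeR (log2FC 0.39), and it was under 0.05 in 13 of 19 alternatives. For *C1qa* in the aged mice (0.54, 3 of 3 samples higher) it ranged from 0.0101 to 0.0669 by edgeR, above 0.05 without aged ICH 1, aged sham 1 or aged sham 2.

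The proportions of the C1q subunits to each other varied little. The ratio of *C1qa* to *C1qc* in FPKM ran from 1.79 to 2.24 over the 12 samples, *C1qb* to *C1qc* from 2.14 to 2.49, and *C1qa* to *C1qb* from 0.796 to 0.983. Of 10 genes of homeostatic microglia, in the young mice 0 were called higher by edgeR, DESeq2 or limma (1, 1 and 3 had an unadjusted *P* under 0.05) and edgeR called 2 lower (*P2ry12* and *Siglech*), while in the aged mice edgeR called 1 higher (*Fcrls*) and the same 2 lower. Summed, the 10 microglial genes measured 142.7, 127.4 and 120.2 FPKM in the young sham samples, 149.2, 130.01 and 163.3 in the young ICH samples, 141.8, 132.7 and 135.9 in the aged sham samples, and 160.4, 146.7 and 136.3 in the aged ICH samples. These sums overlapped between ICH and sham at each age. Divided by them, the summed C1q level was 0.991, 0.867 and 1.005 in the young sham samples, 1.32, 1.26 and 1.26 in the young ICH samples, 1.02, 1.08 and 1.16 in the aged sham samples, and 1.55, 1.55 and 1.51 in the aged ICH samples. This ratio was higher in every ICH sample than in every sham sample of the same age. None of the 10 markers was at 0 in all samples, and what part microglial number had in the C1q values was not tested. In bulk tissue more or fewer cells of a type and more or less RNA per cell cannot be told apart.

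Downstream of C1q, the C1 protease genes *C1ra* and *C1s1* rose after ICH at both ages. *C1ra*, which encodes C1r, measured 2.25, 1.69 and 3.69 FPKM in the young sham samples, 4.33, 4.29 and 10.9 in the young ICH samples, 2.52, 1.12 and 2.79 in the aged sham samples, and 6.87, 5.96 and 5.23 in the aged ICH samples. Young ICH 3 was far above the other young ICH samples, and no ICH sample overlapped with the sham samples of its age. The fold was 2.40 in the young mice (log2FC 1.26 ± 0.41; edgeR, adjusted *P* = 0.0505) and 2.67 in the aged mice (1.42 ± 0.41; edgeR, adjusted *P* = 0.0437). *C1s1*, which encodes C1s, rose by a fold of 2.58 in the young mice (1.37 ± 0.39; edgeR, adjusted *P* = 0.0308) and 2.94 in the aged mice (1.56 ± 0.39; edgeR, adjusted *P* = 0.0237), in 3 of 3 samples at each age. It measured 1.26, 0.812 and 1.47 FPKM in the young sham samples and 2.01, 2.31 and 5.46 in the young ICH samples, so that young ICH 3, the sample highest in the choroid plexus gene *Ttr*, was far above the others here too. Neither protease gene was tested without this sample. Of the 10 classical pathway genes listed, 9 were tested, and *C1ra* and *C1s1* were the 2 called in each comparison; *C1s2*, a further C1s gene, was not called at either age (log2FC 0.02 and 0.43, groups overlapping in the young mice), and *C1rb* had too few counts. Of all genes tested, 8.66% were called higher in the young and 7.24% in the aged comparison. The median log2FC of the 9 classical pathway genes was 0.48 in the young and 0.54 in the aged mice.

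*C4b*, the gene of the C4 that C1s cleaves, measured 27.9, 17.2 and 31.2 FPKM in the young sham samples, 33.7, 33.2 and 46.2 in the young ICH samples, 49.8, 44.4 and 61.1 in the aged sham samples, and 63.1, 68.4 and 55.6 in the aged ICH samples. All 3 young ICH samples were above the young sham samples, whereas the aged groups overlapped, and the larger step lay between the ages. After ICH the log2FC was 0.48 ± 0.20 in the young mice (fold 1.39, 3 of 3 samples higher; edgeR, adjusted *P* = 0.116) and 0.20 ± 0.20 in the aged mice (fold 1.15, groups overlapping; edgeR, adjusted *P* = 0.546), and *C4b* was not called in either. Without young sham 3 it was called in the young mice (0.64), whereas without young sham 2 the log2FC there was 0.26. Its close relatives in the cascade were expressed at lower levels and were not called: *C4a*, the neighbouring copy, ranged from 0.614 to 0.958 FPKM over all samples, and *C2*, which joins C4 in the classical C3 convertase, from 0.200 to 0.402 FPKM.

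*C3*, the protein at which the pathways meet, varied more between pools than any other of the 9 genes. It measured 5.11, 0.606 and 4.43 FPKM in the young sham samples, 3.16, 2.33 and 44.4 in the young ICH samples, 2.28, 1.24 and 4.27 in the aged sham samples, and 10.7, 13.3 and 2.41 in the aged ICH samples. Young ICH 3, aged ICH 1 and aged ICH 2 were high, and the remaining ICH samples lay within the range of the sham samples. The groups overlapped at both ages, and the log2FC of 2.19 ± 1.08 in the young mice (edgeR, adjusted *P* = 0.182) and 1.69 ± 1.08 in the aged mice (edgeR, adjusted *P* = 0.334) did not pass. The same 3 samples were high in RNA of the choroid plexus, the tissue that makes cerebrospinal fluid. The 6 choroid plexus genes summed to 345.5, 215.5 and 34.1 FPKM in the young sham samples, 32.9, 5.39 and 3194 in the young ICH samples, 42.5, 29.4 and 58.4 in the aged sham samples, and 1238, 1582 and 26.7 in the aged ICH samples. *Ttr*, encoding transthyretin, was the most abundant, and none of the 6 was at 0 in all samples. Among the other 9 samples, young sham 1 was highest in both the sum (345.5) and *C3* (5.11), whereas young sham 2, next in the sum (215.5), had the lowest *C3* of all. Of these 6 genes, 0 were called or had an unadjusted *P* under 0.05 in the young mice by edgeR, DESeq2 or limma, and in the aged mice 2 (*Ttr* and *Folr1*) were called by edgeR, 3 by DESeq2 and 0 by limma. Without the 3 samples above 1000 FPKM of *Ttr*, a choice made after seeing the data, the log2FC of *C3* turned to −0.38 in the young and −0.16 in the aged mice, neither of them called. The aged ICH group then holds 1 sample, assumed to vary like the others. Without young ICH 3 alone the young value was also −0.38, while without young ICH 1 (2.68) or young ICH 2 (2.71) *C3* was called in the young mice; without young ICH 3 it was called in the aged mice (1.69). Whether choroid plexus tissue had a part in the *C3* values was not tested.

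**Figure D2:**
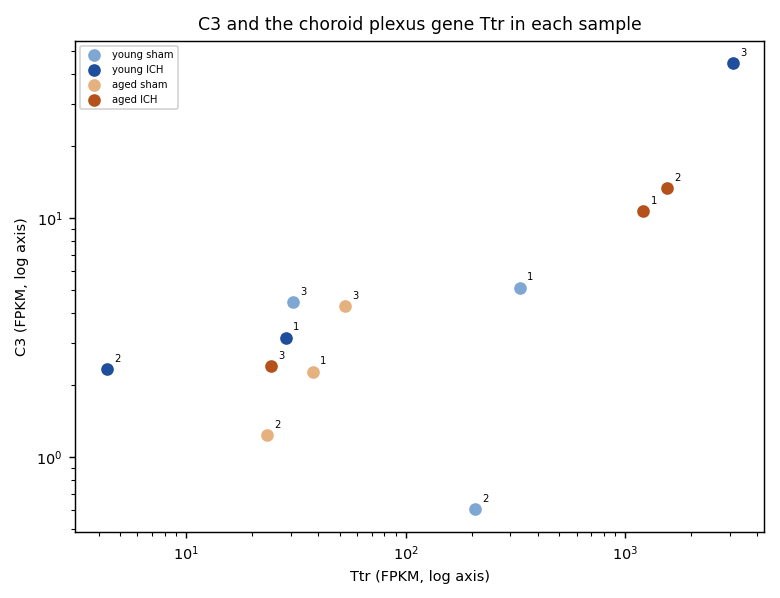
FPKM of *C3* (vertical log axis) against FPKM of the choroid plexus gene *Ttr* (horizontal log axis), with 1 point per sample, coloured by group and numbered by replicate. The 3 samples above 1000 FPKM of *Ttr* had the 3 highest *C3* levels, 10.7, 13.3 and 44.4 FPKM.

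The 3 genes called after ICH were also called without the samples high in *Ttr*. The log2FC was then 0.86 in the young and 0.83 in the aged mice for *Serping1*, 1.27 and 1.26 for *C3ar1*, and 1.88 and 1.61 for *C5ar1*. For the C1q genes it was 0.52 and 0.36 for *C1qa*, 0.47 and 0.45 for *C1qb*, and 0.34 and 0.46 for *C1qc*. With the aged ICH group reduced to 1 sample, none of the 6 genes kept an adjusted *P* under 0.05 by edgeR in the aged mice, where all 6 had an unadjusted *P* under 0.05; in the young mice *C1qc* did not keep it.

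*Cfb*, the protease subunit of the alternative pathway convertase, was close to the limit of detection, with 3 to 21 counts per sample. It measured 0.112, 0.0321 and 0.0899 FPKM in the young sham samples, 0.136, 0.142 and 0.185 in the young ICH samples, 0.114, 0.0587 and 0.116 in the aged sham samples, and 0.123, 0.262 and 0.0459 in the aged ICH samples. The young ICH samples were all above the young sham samples, but the aged ICH samples spanned the aged sham range on both sides. The log2FC was 0.86 ± 0.57 in the young mice (3 of 3 samples higher, adjusted *P* = 0.314 by edgeR). In the aged mice it was 0.47 ± 0.56 (groups overlapping, adjusted *P* = 0.628 by edgeR). With single libraries left out, the young value ran from 0.50 (without young sham 2) to 1.24 (without young sham 1). *Cfb* was not called at either age, and the part of its low counts in this was not tested. *Cfp*, which encodes properdin, the stabilizer of the alternative convertase, was the most abundant of the 4 genes listed with *C3* and the alternative pathway. It was higher in every ICH sample at both ages, by a fold of 1.32 in the young mice (0.40 ± 0.09; edgeR, adjusted *P* = 0.0105) and 1.30 in the aged mice (0.38 ± 0.09; edgeR, adjusted *P* = 0.0197). Of the 3 tested genes of this list, 0 were called at either age by edgeR, DESeq2 or limma, and 1 (*Cfp*) had an unadjusted *P* under 0.05 by each tool; *Cfd* had too few counts to be tested.

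*C5ar1* and *C3ar1*, receptors of complement fragments, rose at both ages. *C5ar1*, a receptor of C5a, measured 1.33, 1.80 and 2.17 FPKM in the young sham samples, 6.28, 7.39 and 8.99 in the young ICH samples, 3.09, 0.941 and 3.24 in the aged sham samples, and 9.64, 6.90 and 7.70 in the aged ICH samples. No ICH sample came near the sham samples, and aged sham 2 was the lowest of all. The fold was 4.02 in the young mice (log2FC 2.01 ± 0.36; edgeR, adjusted *P* = 0.00406) and 3.17 in the aged mice (1.67 ± 0.35; edgeR, adjusted *P* = 0.0129). *C3ar1*, the receptor of C3a, measured 1.72, 1.76 and 1.74 FPKM in the young sham samples, 4.24, 4.61 and 6.14 in the young ICH samples, 2.88, 1.49 and 3.77 in the aged sham samples, and 7.29, 4.996 and 6.77 in the aged ICH samples. The young sham samples were nearly equal, the aged sham samples were spread with aged sham 2 lowest, and no ICH sample overlapped with the sham samples of its age. *C3ar1* rose by a fold of 2.70 in the young mice (1.43 ± 0.27; edgeR, adjusted *P* = 0.0051) and 2.23 in the aged mice (1.16 ± 0.26; edgeR, adjusted *P* = 0.0171). Both receptors met the DEG criteria with each of the 12 libraries left out. The adjusted *P* by edgeR in the aged mice rose above 0.05 for *C3ar1* (log2FC 1.16, 3 of 3 samples higher) without aged ICH 1, aged ICH 3 or aged sham 1, over a range of 0.011 to 0.0757, and for *C5ar1* (1.67, 3 of 3 samples higher) without aged ICH 1, over a range of 0.012 to 0.0587.

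Of the 9 complement receptors listed, 8 were tested. In the young mice 5 were called higher, against 8.66% of all genes, with a median log2FC of 0.94. Besides *C3ar1* and *C5ar1*, these were *Itgb2* (fold 1.83) and *Itgax* (2.50), subunits of complement receptors 3 and 4, and *Cd93* (1.999), a C1q-binding receptor homolog on myeloid and endothelial cells. In the aged mice 6 were called higher and 1 lower, against 7.24% and 2.82% of all genes, with a median log2FC of 0.82. The higher ones were the same 5, with *Itgb2* at 1.84, *Itgax* at 1.80 and *Cd93* at 1.74, and *C5ar2*, a further C5a receptor, at 1.72. *Cr2*, a receptor of C3 fragments best known from B cells, was lower by a log2FC of −0.70 ± 0.19 in the aged mice (3 of 3 samples lower; edgeR, adjusted *P* = 0.0352) at 17 to 37 counts per sample over all groups. *C5ar2* and *Cr2* were not called in the young mice (log2FC 0.22 and −0.44), but the difference between the ages was not past the test for either (interaction log2FC 0.56 ± 0.36 for *C5ar2* and −0.26 ± 0.27 for *Cr2*, neither with an unadjusted edgeR *P* under 0.05). *Itgam*, which pairs with *Itgb2* in complement receptor 3, was higher in every ICH sample at both ages, by a log2FC of 0.24 ± 0.13 in the young mice (edgeR, adjusted *P* = 0.214) and 0.49 ± 0.13 in the aged mice (edgeR, adjusted *P* = 0.029). *Vsig4*, a receptor of resident macrophages, had at most 4 counts in a sample and was not tested.

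Markers of blood-borne and border myeloid cells, which are known to carry these receptors, moved with them. Of 8 infiltrating monocyte genes, 5 were called higher in the young and 4 in the aged comparison, with *Fn1* the most abundant and none at 0 in all samples. Summed, they measured 12.9, 12.03 and 15.3 FPKM in the young sham samples, 30.7, 28.4 and 34.7 in the young ICH samples, 17.0, 9.61 and 20.1 in the aged sham samples, and 40.0, 35.6 and 39.2 in the aged ICH samples. No ICH sample overlapped with the sham samples, and aged sham 2 was lowest, as for *C3ar1* and *C5ar1*. Of 8 border macrophage genes, 6 were called higher in the young mice, and 4 higher and 1 lower (*Cd163*) in the aged mice. Their sum was 5.21, 4.26 and 2.53 FPKM in the young sham samples, 10.9, 10.45 and 11.97 in the young ICH samples, 3.74, 5.34 and 5.34 in the aged sham samples, and 10.9, 10.0 and 11.6 in the aged ICH samples, with *Pf4* the most abundant and none at 0 in all samples. Of 10 neutrophil genes 8 were tested, and 6 were called higher at each age, with *S100a9* the most abundant, none at 0 in all samples, and the defining marker *Ly6g* too low to be tested. The neutrophil sum was 3.53, 5.13 and 3.92 FPKM in the young sham samples, 11.1, 27.3 and 24.0 in the young ICH samples, 6.79, 8.61 and 18.2 in the aged sham samples, and 49.6, 47.4 and 30.7 in the aged ICH samples. The part of these cells in the receptor values was not tested.

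*Serping1*, whose product C1 inhibitor holds back C1r and C1s, measured 5.09, 3.28 and 4.97 FPKM in the young sham samples, 8.43, 8.58 and 13.1 in the young ICH samples, 3.91, 3.49 and 4.07 in the aged sham samples, and 8.29, 9.11 and 7.10 in the aged ICH samples. The ICH samples were all above the sham samples of either age, and young ICH 3 was the highest. *Serping1* rose by a fold of 2.12 in the young mice (log2FC 1.08 ± 0.19; edgeR, adjusted *P* = 0.00387) and 2.03 in the aged mice (1.02 ± 0.19; edgeR, adjusted *P* = 0.00865), and it met the DEG criteria with each library left out. Genes of reactive astrocytes rose with it: 8 of 8 were called higher at each age, *Gfap* was the most abundant and none was at 0 in all samples. Their sum was 244.9, 205.9 and 304.3 FPKM in the young sham samples, 807.5, 749.6 and 1196 in the young ICH samples, 394.1, 151.5 and 419.3 in the aged sham samples, and 1080.1, 842.0 and 973.4 in the aged ICH samples. Their part in the *Serping1* values was not tested.

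*Clu*, encoding clusterin, an inhibitor of the membrane attack complex, was the most abundant of the soluble regulators listed and was higher in every ICH sample, by a fold of 1.37 in the young mice (0.46 ± 0.14; edgeR, adjusted *P* = 0.0385) and 1.32 in the aged mice (0.40 ± 0.14; edgeR, adjusted *P* = 0.0788). Of 8 soluble regulators listed, 5 were tested, and *Serping1* was called at both ages. *Cfi*, *C4bp* and *Cpn2* had too few counts.

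Membrane regulators, which protect cells from complement, included genes that fell. Of 13 listed, 12 were tested, and 2 were called lower at each age, against 3.49% of all genes called lower in the young and 2.82% in the aged comparison. None of the 12 was called higher, or had an unadjusted *P* under 0.05 in that direction, by edgeR, DESeq2 or limma, and limma called 0 of 12 lower, with an unadjusted *P* under 0.05 for 2 at each age. The 2 were *Csmd3* and *Sez6*, neuronal proteins with complement control domains. *Csmd3* fell by 0.62 on the log2 scale in the young mice (3 of 3 samples lower; edgeR, adjusted *P* = 0.0321) and by 0.64 in the aged mice (3 of 3 samples lower; edgeR, adjusted *P* = 0.0375). *Sez6* fell by 0.60 at both ages, with 3 of 3 samples lower in the young mice (edgeR, adjusted *P* = 0.102) and overlapping groups in the aged mice (edgeR, adjusted *P* = 0.119). The 8 striatal neuron genes had median log2FC of −0.95 and −1.11 in the same comparisons, with 0 of 8 called, or with an unadjusted *P* under 0.05, by edgeR or DESeq2; limma called 0 lower in the young and 4 lower in the aged mice. The part of neurons in these values was not tested. *Cd55* and *Cd59a*, inhibitors of the convertases and of the membrane attack complex, were highest in young ICH 3, at 2.32 and 11.3 FPKM.

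Lectin and terminal pathway genes had few transcripts in this tissue. Of 9 lectin pathway genes 5 were tested, *Colec12* was the most abundant with a mean of 2.78 FPKM, and *Mbl1*, a mannose-binding lectin made by the liver, had 0 counts in all samples. The median log2FC of the 5 was 0.10 in the young and 0.06 in the aged mice. Of 7 terminal pathway genes, which form the membrane attack complex, 3 were tested, with *C8g* the most abundant at a mean of 2.42 FPKM and a median log2FC of −0.40 and −0.10. *Hc*, the gene of C5, had 3 to 21 counts per sample, and *C6*, *C8a*, *C8b* and *C9* were too low to be tested. None of the tested genes of these 2 lists was called, or had an unadjusted *P* under 0.05, by edgeR, DESeq2 or limma at either age. Together the complement lists held 51 genes besides the 9 members, of which 36 were tested. In the young mice 6 were called higher and 2 lower, against 8.66% and 3.49% of all genes. In the aged mice 6 were called higher and 3 lower, against 7.24% and 2.82%. Their median log2FC was 0.13 in the young and 0.07 in the aged mice.

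**Figure D3:**
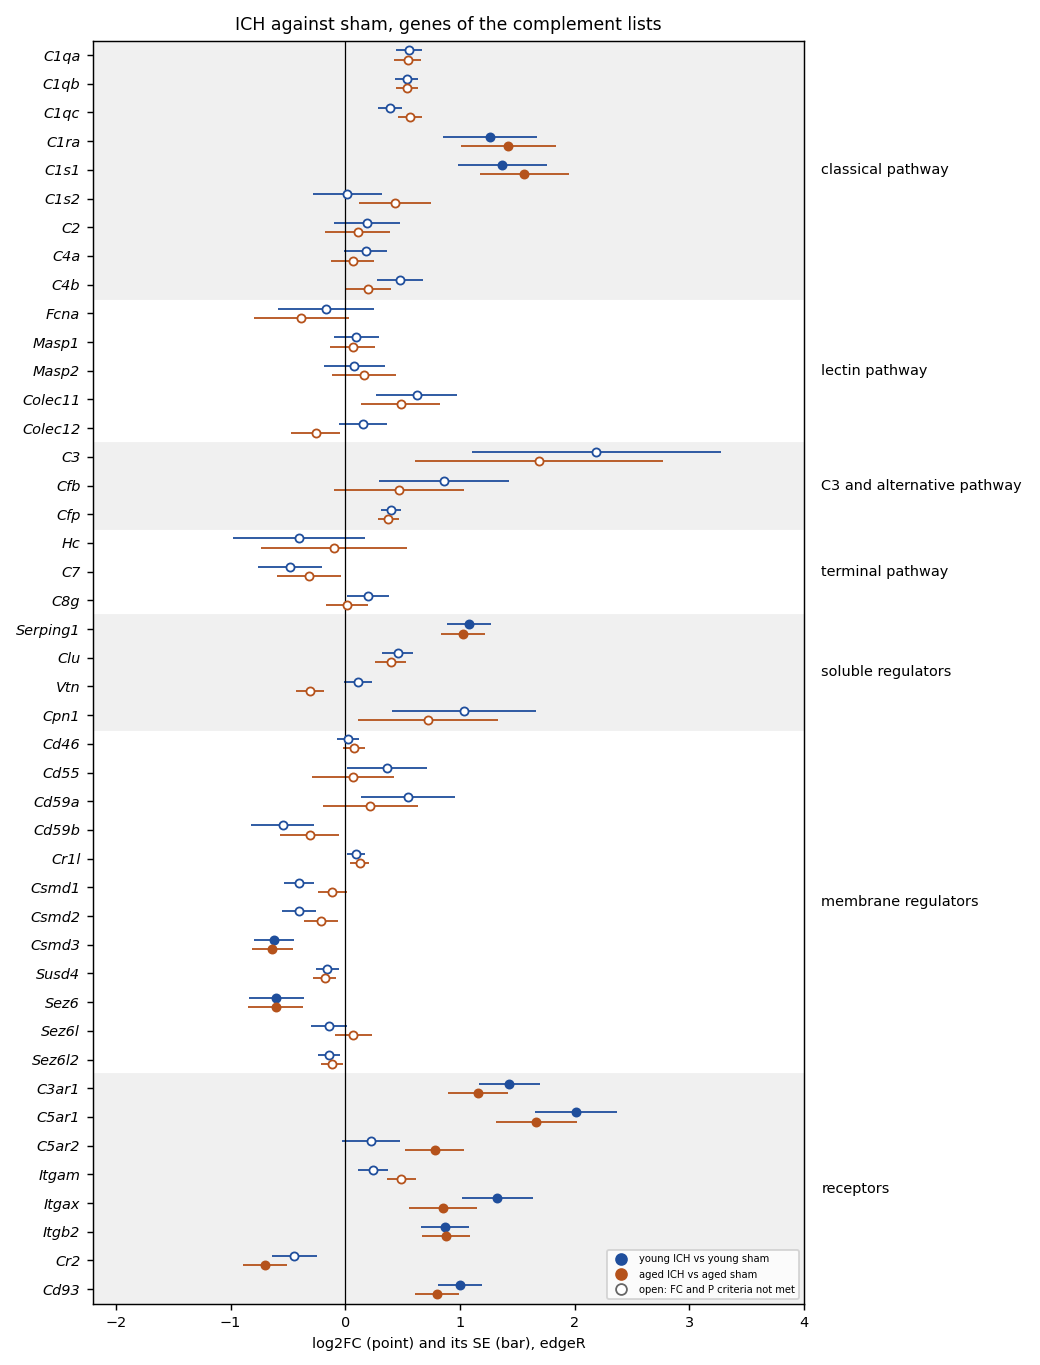
Fitted log2FC of ICH against sham (horizontal axis, points, with SE as bars) for tested genes of the complement lists (vertical axis), in young (blue) and aged (orange) mice; filled points meet the FC and *P* criteria. *C5ar1* had the largest log2FC among the genes called, 2.01 in the young and 1.67 in the aged mice, and the genes called lower were *Csmd3* and *Sez6* at both ages and *Cr2* in the aged mice.

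Age itself was compared in the absence of hemorrhage, between the aged sham and young sham groups, and after it, between the aged ICH and young ICH groups. These comparisons share no samples with each other, but each shares its samples with the ICH comparisons. In the sham mice 2 of the 9 complement genes were called higher with age (*C4b* and *C3ar1*), against 2.82% of all genes, and after ICH 1 was (*C4b*), against 2.21%. By an adjusted *P* under 0.05 alone, 0 of 9 passed with edgeR in either comparison, where 0.102% and 0.0558% of all genes passed; 3 members had an unadjusted *P* under 0.05 in each. DESeq2 gave 3 members with an unadjusted and 1 with an adjusted *P* under 0.05 in each comparison, and limma gave 2 and 3 unadjusted and 0 adjusted. The median log2FC of the 9 genes was 0.25 in the sham mice, against 0.01 for all genes tested, and 0.17 after ICH, against −0.00. *C1qa*, *C1qc* and *C4b* were above in every aged ICH sample compared with every young ICH sample, and *C1qa* and *C4b* in every aged sham sample compared with every young sham sample. The share of all genes tested whose groups lay apart in this way is not given here.

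*C4b* was called higher with age in both settings. The fold was 1.98 in the sham mice (log2FC 0.98 ± 0.20, 3 of 3 samples higher; edgeR, adjusted *P* = 0.118) and 1.63 after ICH (0.71 ± 0.20, 3 of 3 samples higher; edgeR, adjusted *P* = 0.278), so neither passed the correction by itself. Averaged over sham and ICH, which compares 6 aged with 6 young samples, *C4b* was higher with age by a fold of 1.80 (0.84 ± 0.14; edgeR, adjusted *P* = 0.0193). In CPM after TMM (counts scaled to library size with a factor per sample) all 6 aged samples were above all 6 young samples. The lowest aged sample was at 257.1 and the highest young sample at 254.0. This order depends on the scaling. With counts scaled to the total count alone, young ICH 3 passed aged sham 2, and in FPKM it did so as well, at 46.2 against 44.4. *C4b* was the 1 member called by edgeR in this averaged comparison, where 2.61% of all genes were called higher, and the 1 with an adjusted *P* under 0.05 by edgeR, where 0.772% of genes had one and were higher. DESeq2 gave 2 such members (*C4b* and *C1qa*) and limma 1; the median log2FC of the 9 genes was 0.22. Over the 12 libraries left out in turn, the adjusted *P* by edgeR for *C4b* (log2FC 0.74 to 0.93) ranged from 0.0133 to 0.0606. It was above 0.05 without aged ICH 1, aged sham 3 or young ICH 1. Over all alternatives the highest adjusted *P*, 0.0963 by edgeR, came without the samples high in *Ttr* (0.84).

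Several cell type lists also differed with age, and their part in the *C4b* values was not tested. Of 8 reactive astrocyte genes, edgeR called 1 higher in the sham mice (*Osmr*), where the median log2FC of the list was 0.36, and after ICH, where it was 0.14, 0 were called, or had an unadjusted *P* under 0.05, by edgeR, DESeq2 or limma. The summed level was lowest in aged sham 2 (151.5 FPKM), while aged sham 1 (394.1) and aged sham 3 (419.3) were above every young sham sample. How far the sham value depends on aged sham 2 was not tested. Neutrophil genes were called higher with age for 6 of 8 in the sham mice (median log2FC 2.74), 4 of 8 after ICH (1.25) and 6 of 8 in the averaged comparison (1.74), where 3 had an adjusted edgeR *P* under 0.05. Of 12 genes stimulated by type I interferon, 10 were called higher with age after ICH (0.92) and 5 in the averaged comparison; in the sham mice 0 were called, or had an unadjusted *P* under 0.05, by edgeR, DESeq2 or limma. Their sum was 50.4, 40.3 and 85.3 FPKM in the young sham samples, 77.0, 74.3 and 124.5 in the young ICH samples, 100.8, 34.7 and 71.9 in the aged sham samples, and 251.7, 147.5 and 155.8 in the aged ICH samples. Of 7 oligodendrocyte genes, 4 were called lower with age after ICH (−0.58) and 2 in the averaged comparison, and in the sham mice 0 by edgeR, DESeq2 or limma, with 0 at an unadjusted *P* under 0.05. Their sum was 1239, 727.3 and 995.5 FPKM in the young sham samples, 1060.0, 861.9 and 1178 in the young ICH samples, 791.2, 1040.8 and 1028 in the aged sham samples, and 731.7, 760.1 and 650.4 in the aged ICH samples, with *Mbp* the most abundant. Fibroblast genes were called lower with age by edgeR for 3 of 6 after ICH (−0.65), 3 of 6 in the averaged comparison (−0.47) and 0 of 6 in the sham mice. Red blood cell genes were called higher with age by edgeR for 3 of 5 in the sham mice (1.58), 0 of 5 after ICH and 1 of 5 in the averaged comparison.

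The age difference of *C3ar1* rested on single pools. In the sham mice the log2FC was 0.60 ± 0.27 (fold 1.51, groups overlapping; edgeR, adjusted *P* = 0.399). Aged sham 2 (1.49 FPKM) lay below every young sham sample, and aged sham 1 (2.88) and aged sham 3 (3.77) above them. The call was lost without aged sham 3 (0.30), aged sham 1 (0.54), young sham 1 (0.59), young sham 2 (0.61) or young sham 3 (0.59). It was also lost, by the *P* alone, without aged ICH 1, aged ICH 3, young ICH 1 or young ICH 2, where the log2FC was 0.59 to 0.60. Without aged sham 2 the value was 0.89, and *C5ar1* was then called as well (0.80, from 0.42 with all samples). Without aged sham 3 the log2FC of *C5ar1* was 0.17. Averaged over sham and ICH, *C3ar1* had a log2FC of 0.46 ± 0.19 (groups overlapping; edgeR, adjusted *P* = 0.22) and was called without aged sham 2 (0.61) or without the samples high in *Ttr* (0.59). Aged sham 2 was also the lowest sample for the summed reactive astrocyte genes and monocyte genes.

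*C1qa* was higher with age by a log2FC of 0.30 ± 0.12 in the sham mice (3 of 3 samples higher; edgeR, adjusted *P* = 0.333) and 0.29 ± 0.12 after ICH (3 of 3 samples higher; edgeR, adjusted *P* = 0.467). *C1qc* differed by 0.31 ± 0.10 after ICH (3 of 3 samples higher; edgeR, adjusted *P* = 0.385) and by 0.13 ± 0.10 in the sham mice (groups overlapping; edgeR, adjusted *P* = 0.644). Both stayed short of the FC criterion. *Serping1* had a negative log2FC in both, −0.26 ± 0.19 in the sham mice and −0.32 ± 0.19 after ICH, with overlapping groups and no call. Among the other complement genes, *Itgax* was called higher in the sham mice (0.73 ± 0.31, groups overlapping; edgeR, adjusted *P* = 0.375). After ICH *Cd59b* was called higher with age (0.67 ± 0.27, groups overlapping; edgeR, adjusted *P* = 0.471). *Cd55* was called lower after ICH (−0.79 ± 0.35, groups overlapping; edgeR, adjusted *P* = 0.512), where 1.30% of all genes were called lower, and in the averaged comparison (−0.64 ± 0.25, groups overlapping; edgeR, adjusted *P* = 0.204), where 0.944% were; its highest level, 2.32 FPKM, was in young ICH 3.

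Whether the response to ICH differed between the ages was tested by the interaction, the aged log2FC minus the young log2FC. No complement gene was called: 0 of 9 by edgeR, DESeq2 or limma, and 0 of 9 had an unadjusted *P* under 0.05 by any of the 3, against 1.56% of all genes called by edgeR and 0% with an adjusted *P* under 0.05. The interaction log2FC was −0.01 ± 0.16 for *C1qa*, 0.01 ± 0.14 for *C1qb* and 0.17 ± 0.15 for *C1qc*. It was −0.27 ± 0.37 for *C3ar1*, −0.34 ± 0.49 for *C5ar1*, −0.06 ± 0.27 for *Serping1* and −0.28 ± 0.28 for *C4b*. For *C3* and *Cfb* the error was larger, at −0.50 ± 1.49 and −0.40 ± 0.80. The median over the 9 genes was −0.27, and over all genes tested −0.01. Without aged sham 2, *C5ar1* was called (−0.72), whereas without aged sham 3 its value was −0.09.

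Other cell type lists were counted in the same comparisons of ICH with sham. Of 8 astrocyte genes, 3 were called higher in the young mice (*Aqp4*, *Aldh1l1* and *Sox9*); in the aged mice 0 were called by edgeR or DESeq2 and 1 by limma, with 3 higher and 2 lower at an unadjusted edgeR *P* under 0.05. Of 7 oligodendrocyte genes, 0 were called by any of the 3 tools in the young mice, where limma alone gave 1 with an unadjusted *P* under 0.05, and edgeR called 4 lower in the aged mice. Endothelial genes were called higher for 4 of 7 in the young and 2 of 7 in the aged mice, and fibroblast genes for 2 of 6 and 1 of 6. Red blood cell genes were called higher for 4 of 5 in the young mice, led by *Hbb-bs*, and for 1 of 5 (*Alas2*) in the aged mice, where aged ICH 3 had 783 counts of *Alas2*, aged ICH 1 and aged ICH 2 had 32 and 56, and the aged sham samples had 54 to 64. Liver and plasma protein genes bear on complement because the liver makes most circulating components. Of 8 such genes 3 were tested, *Fgb* and *Serpina1a* were at 0 in all samples, *Alb* did not pass 0.0452 FPKM in any sample, and 1 was called in the young (*Fga*) and 2 in the aged mice (*Fga* and *Ttr*). *Ttr* is also in the choroid plexus list, and it had 51050 and 53474 counts in aged ICH 1 and aged ICH 2. Aged ICH 3 had 911, within the range of the aged sham samples, 858 to 2167. Genes stimulated by type I interferon were called higher for 1 of 12 in the young and 12 of 12 in the aged mice, with *Ifit3* the most abundant; in the interaction 0 of 12 were called, or had an unadjusted *P* under 0.05, by edgeR or limma, and 1 was called by DESeq2.

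The genes most like each member in pattern were sought among 21450 tested genes outside the complement lists, by the root mean square difference in log2 CPM over the 12 samples after centring each gene on its mean. The nearest gene was *Samhd1* for *C1qa*, *Tubb2b* for *C1qb* (0.07) and *Rpl35* for *C1qc* (0.09), and *Samhd1* was among the 3 nearest for each of the C1q genes, at 0.11 for *C1qa*, 0.08 for *C1qb* and 0.09 for *C1qc*; these genes themselves vary by 0.34, 0.30 and 0.29 on the same measure. *C3ar1* was nearest to *Msn* (0.08, against its own variation of 0.76), then *Sbno2* and *Tnfrsf1b*. For *C5ar1* the nearest were *Tnfrsf12a* (0.20, against 1.07) and *Ms4a6d*, and for *Serping1* they were *B4galt1* (0.17, against 0.58), *Serpinh1* and *Tlr7*. *C4b* was nearest to *Gm17076* (0.21, against 0.53) and *Fpr1*. For *C3* even the nearest gene, *Orm2*, differed by 0.56 against its own 1.53, and for *Cfb* the nearest with a symbol, *Gpr18*, differed by 0.36 against 0.62.

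Several of the genes are neighbours in the genome (GRCm38.p6). *C1qb* (chr4:136880129-136886187), *C1qc* (chr4:136889804-136893065) and *C1qa* (chr4:136895917-136898803) lie on the minus strand within 18675 bases, with gaps of 3616 and 2851 bases between them. *C4b* (chr17:34728380-34743882), *Cfb* (chr17:34856374-34862518) and *C3* (chr17:57203970-57228136) are on chromosome 17, with *C4a* (chr17:34809092-34823464) between the first 2 and *C2* (chr17:34862604-34898265) next to *Cfb*. *Cfb* overlaps on the same strand with the read-through gene *Gm20547*, which had 0 counts in all samples. *C5ar1* (chr7:16246743-16259540) neighbours *C5ar2* (chr7:16234585-16244154), *C3ar1* is at chr6:122847138-122856161, and *Serping1* is at chr2:84765387-84775444.

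The promoters of C1q and receptor genes are shown because these genes had an adjusted *P* under 0.05 in the main edgeR fit after ICH at both ages, though not under every alternative. RefSeq promoter sequences (GRCm38.p6, 250 bases before to 50 after the start of the gene) matched 5 of the 9 symbols, *C1qb*, *C1qc*, *C3ar1*, *C5ar1* and *C3*; *C1qa*, *C4b*, *Cfb* and *Serping1* were not matched. They were searched on both strands for GAAANNGAA (the core of the interferon-stimulated response element), TTCNNNGAA (the interferon-gamma activated site), GAGGAAGT (PU.1, a myeloid factor) and the NF-kB motif. Of 32851 promoters of the same length, 8.56% held the first of these, 8.3% the second, 3.2% the PU.1 letters and 4.51% the NF-kB motif. All 4 promoters printed are on the minus strand, written 5′ to 3′ along the gene, and capitals mark the matches, which do not overlap each other. *C1qb* (chr4:136886151-136886450) and *C3ar1* (chr6:122856108-122856407) held none of the 4 motifs, nor did *C3*. *C1qc* (chr4:136892865-136893164) held the PU.1 letters on the opposite strand, from −195 to −188 relative to the start, and an NF-kB match from −41 to −32. *C5ar1* (chr7:16259289-16259588) held the interferon core on the opposite strand, from −66 to −58. For *C1qc* and *C5ar1* the RefSeq start lies inside the gene span of GENCODE given above, so that most of the promoter, with the NF-kB match and the interferon core, falls within that span. A match is a run of letters and not a shown binding site.
C1qb: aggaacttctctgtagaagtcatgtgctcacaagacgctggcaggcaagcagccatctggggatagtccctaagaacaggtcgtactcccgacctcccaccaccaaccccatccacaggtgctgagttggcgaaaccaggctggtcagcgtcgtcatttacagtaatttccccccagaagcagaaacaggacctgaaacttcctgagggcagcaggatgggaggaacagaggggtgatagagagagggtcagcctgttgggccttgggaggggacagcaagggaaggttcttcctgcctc
C1qc: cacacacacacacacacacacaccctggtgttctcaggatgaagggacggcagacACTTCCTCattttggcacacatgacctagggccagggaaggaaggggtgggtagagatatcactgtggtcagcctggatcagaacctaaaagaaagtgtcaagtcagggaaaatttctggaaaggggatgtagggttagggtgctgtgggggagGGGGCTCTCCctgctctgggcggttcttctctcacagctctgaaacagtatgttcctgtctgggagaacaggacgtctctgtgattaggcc
C3ar1: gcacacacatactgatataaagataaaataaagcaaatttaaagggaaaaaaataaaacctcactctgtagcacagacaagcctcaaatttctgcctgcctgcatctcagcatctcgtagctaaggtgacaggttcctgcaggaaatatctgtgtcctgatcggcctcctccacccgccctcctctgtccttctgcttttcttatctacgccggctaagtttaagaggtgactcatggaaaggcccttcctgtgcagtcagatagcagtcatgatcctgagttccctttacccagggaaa
C5ar1: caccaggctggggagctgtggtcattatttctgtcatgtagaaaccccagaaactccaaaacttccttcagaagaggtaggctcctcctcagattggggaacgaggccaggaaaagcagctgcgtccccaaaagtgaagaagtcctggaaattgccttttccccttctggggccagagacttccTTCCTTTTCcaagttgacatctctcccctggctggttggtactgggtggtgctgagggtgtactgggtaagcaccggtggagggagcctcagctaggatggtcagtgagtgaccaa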

How the data were processed

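RNA-seq of 12 samples was analysed, 3 per group, grouped by their labels. The authors aligned reads to GRCm38.p6 with HISAT2 and counted them with featureCounts; the deposited table holds raw counts per gene. The FPKM values were also computed and deposited by the authors. Strand setting and treatment of multi-mapping reads are not given in the sources used here, so the split of reads between overlapping genes or near-identical copies (*C4a* and *C4b*; *Cfb*, *C2* and *Gm20547*) is uncertain. Genes were filtered with filterByExpr (minimum count 10), scaled by TMM and tested in edgeR 4.0.16 by quasi-likelihood in 1 model of 4 groups under R 4.3.3; the SE given after ± was obtained from the size of the log2FC and its F statistic, as log2FC over √F. *P* values were adjusted by Benjamini-Hochberg over all 21495 genes. Alternatives for the 9 members were RLE size factors, DESeq2 1.42.0, limma 3.58.1 on log2(FPKM + 1), no filter, an adjusted *P* with the same FC, replicate number as a block, the 2 groups alone, and each library left out; leaving out the samples high in *Ttr* and an adjusted *P* alone were added after seeing the data. Other genes of the lists were not run under the alternatives, except that their calls by DESeq2 and limma were counted. Tables and figures used Python 3.11.15, pandas 2.3.3, numpy 2.4.6 and matplotlib 3.10.9, and gene positions are from GENCODE by gene ID. All 9 members were named in every comparison; any gene of the complement lists could be named, cell type lists were given by counts with 1 to 4 named genes, and for likeness the 3 nearest genes were sought. Members, lists and motifs were chosen with earlier results of these data known. The procedure was tested on simulated data.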

Additional observations from a re-analysis of the deposited data

How the results depend on the processing

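Of 1008 values recomputed for the 9 members under the alternatives, 932 kept their direction and their side of the criteria, 12 kept the direction but lost the call, 24 kept it and gained one, and 40 changed sign, 0 of them called in either setting. The number of members called in the young ICH comparison was 5 with limma and 6 by an adjusted *P* alone, and 3 to 6 with single libraries left out; in the aged ICH comparison it was 6 with limma, 6 by an adjusted *P* alone and 3 to 6. Between the sham groups it was 1 with the replicate block, 1 with the 2 groups only, 1 with limma, 0 by an adjusted *P* with the same FC, 0 by an adjusted *P* alone, and 1 to 3 with single libraries left out. Between the ICH groups it was 0 by an adjusted *P* with the same FC and 0 by an adjusted *P* alone. Averaged over surgery it was 2 without the samples high in *Ttr* and 1 to 2 with single libraries left out, and for the interaction 0 to 1. Without the samples high in *Ttr*, the log2FC of *C3* became −0.38 in the young and −0.16 in the aged ICH comparison and 0.21 in the interaction, *Cfb* became −1.11 in the aged ICH comparison and −0.67 for age averaged over surgery, and *C1qb* −0.0221 in the interaction. With the replicate block *C3* became 0.25 between the ICH groups and 0.66 in the interaction. With limma the interaction was 0.11 for *C3* and −0.0127 for *C1qb*. With single libraries left out, the log2FC of *C3* ran from −0.38 to 2.71 in the young ICH comparison, −0.98 to 0.00709 between the sham groups, −1.44 to 1.64 between the ICH groups, −0.95 to 0.61 for averaged age and −1.01 to 2.07 in the interaction. For *Cfb* it ran from −0.25 to 0.88 in the aged ICH comparison, −0.11 to 0.63 between the sham groups, −0.86 to 0.27 between the ICH groups, −0.30 to 0.26 for averaged age and −1.11 to 0.0204 in the interaction. *C5ar1* ran from −0.0705 to 0.21 between the ICH groups. In the interaction *C1qa* ran from −0.14 to 0.0894, *C1qb* from −0.0859 to 0.0667, *C3ar1* from −0.56 to 0.0298 and *Serping1* from −0.17 to 0.17. The cause was not tested. Over 18 pairs of samples with the same replicate number the correlations were −0.454 to 0.235, and over the other pairs −0.374 to 0.41. RLE and DESeq2 scaling moved the median of all genes by less than 0.1. *Cfb* lay close to the limit of detection, and genes with too few counts were not tested. With 3 pools per group, a gene that was not called may still differ.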
